A study of Homo sapiens with 2 samples.

Results

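The matrix metalloproteinases (MMPs), the ADAM and ADAMTS proteases and the tissue inhibitors of metalloproteinases (TIMPs) were compared between GLUT4-overexpressing and vector control FaDu cells. FaDu cells derive from a human squamous carcinoma of the pharynx. The genes were taken from all probe sets that the platform annotation assigns to exactly 1 gene with an MMP, ADAM or ADAMTS number or with the name TIMP1, TIMP2, TIMP3 or TIMP4. This gave 145 of the 41097 probe sets that name 1 gene and 64 of 19775 genes, namely 22 MMP genes on 43 probe sets, 20 ADAM genes on 53, 18 ADAMTS genes on 40 and 4 TIMP genes on 9. The rule is one of gene names and sets no threshold on a measured value. Both cell populations had been transduced and selected with puromycin, one carrying GLUT4 and the other the control vector, and the methods speak of stable clones without saying how many were joined. Total RNA of each was hybridized to 1 Affymetrix Human Genome U133 Plus array, so that no replicate and no test stands behind any value given here.

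MMPs are zinc-dependent enzymes that cut collagens, gelatin, proteoglycans and other components of the extracellular matrix. Most are secreted as inactive precursors, while the membrane-type MMPs stay anchored at the cell surface. ADAMs are membrane proteins that release the outer parts of growth factors, cytokines and adhesion molecules, ADAMTS enzymes are secreted and cut proteoglycans, procollagens and von Willebrand factor, and TIMPs bind the active site of these enzymes and block it. In squamous carcinoma this system is known for its part in the invasion of basement membrane and stroma. An mRNA level does not give the activity of such an enzyme, which is set largely by activation of the precursor and by inhibitors.

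The values are linear intensities that were already normalized between the arrays, with a median of 39.1 on the GLUT4 array and 39.7 on the vector array. Each difference is log2 of the GLUT4 intensity minus log2 of the vector intensity, and a difference was counted when it passed 1.5-fold, which is 0.585 on the log2 scale and the threshold of the study's methods. Where a gene had several probe sets, the one with the highest mean of both arrays, called its brightest, stood for the gene. The gap between the 2 brightest probe sets of the same gene had an SD of 0.29 over 10523 genes, or 0.20 for a single probe set (0.21 in the lowest, 0.23 in the middle and 0.16 in the highest of 3 equal groups of genes by signal). Probe sets of a gene can detect different transcripts, so this spread may hold transcript differences beside technical error, and it does not cover variation between cultures. SLC2A4, which encodes GLUT4, read 32.6 on the GLUT4 array and 28.3 on the vector array, and whether its probe set detects the introduced sequence was not determined, so this does not check the labels. Of 9 squamous epithelial markers 6 were measured, and all 6 lay above the median of both arrays, 39.4, on both. By gene, 4 lay above 0 and 2 below. KRT14 read 3985 in GLUT4 cells and 1963 in vector cells (1.02, past 1.5-fold), and CDH1 2224 in GLUT4 cells and 3223 in vector cells (-0.54). Of other lineages, 5 of 8 fibroblast markers, 1 of 7 leukocyte markers and 2 of 5 endothelial markers lay above the median on both arrays. The summed intensities of these 3 lists were 2014, 267 and 145 on the GLUT4 array, against 1609, 381 and 232 on the vector array. The fibroblast markers did not differ one way. On their brightest probe sets DCN, the proteoglycan decorin, read 1050 on the GLUT4 array and 482 on the vector array, and LUM, the proteoglycan lumican, 79.9 in GLUT4 cells against 38.5 in vector cells. FAP, a fibroblast surface protease, read 492 in GLUT4 cells and 709 in vector cells, and COL1A1 and THY1 differed by 0.01 and -0.07. The 1 leukocyte marker above the median was CD14, at 143 in GLUT4 cells and 251 in vector cells. Of the 2 endothelial markers, PECAM1 read 48.2 in GLUT4 cells and 141 in vector cells, and VWF 47.5 and 41.7 (0.19). By gene, 3 endothelial markers lay above 0 and 2 below, and 3 leukocyte markers above and 4 below. The lower sums of these lists thus rest mainly on PECAM1 and CD14. Both arrays hold RNA of FaDu cultures and not of tissue, and whether any other cells contributed to the values below was not tested. In bulk RNA fewer cells of a type and less RNA per cell cannot be told apart.

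Of the 145 probe sets, 1 passed 1.5-fold, that of MMP9, on the lower side, and none passed it on the higher side. Among all probe sets that name 1 gene, 3.34% passed 1.5-fold in either direction, 1.96% on the higher and 1.38% on the lower side. By the brightest probe set, 1 of 64 genes passed, where 3.37% of all genes did (1.84% higher and 1.54% lower). Restricted to signal above the median, 1 of 33 genes passed, against 4.37% of all such genes (2.38% higher and 1.99% lower). A count of 1 is near these shares and is no result about the family. The differences of the 64 genes ran from -0.62 to 0.26 with a median of -0.04, and those of all 19775 genes had a median of -0.01. Their SD across genes was 0.19, against 0.26 for all genes. Of the 145 probe sets, 103 (71.0%) differed by less than 0.2, as did 65.8% of all probe sets that name 1 gene. Differences of 0.3 or more in either direction were found on 17 probe sets (11.7%), against 17.7% of all.

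**Figure D1:**
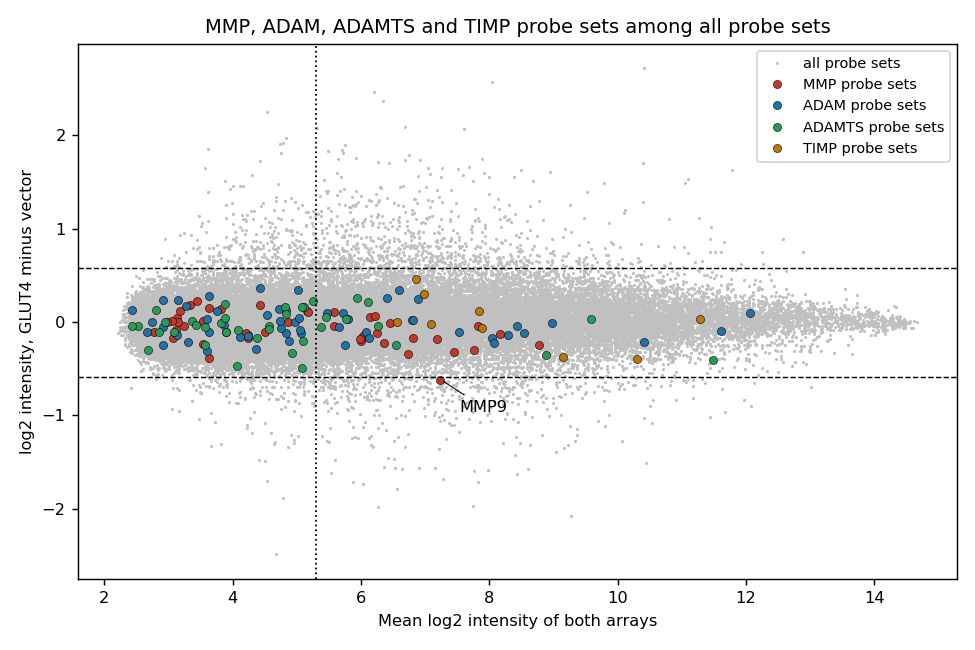
Each point is 1 probe set, with its mean log2 intensity over the pair of arrays on the horizontal axis and its log2 difference, GLUT4 minus vector, on the vertical axis. Dashed lines mark 1.5-fold and the dotted line the median signal. Of the 145 coloured probe sets only that of MMP9, at -0.62, lies beyond a dashed line.

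MMP9, the gelatinase that cuts basement membrane collagen, was the 1 member past the threshold. It read 122 on the GLUT4 array and 187 on the vector array, a log2 difference of -0.62 or 1.53-fold lower. The array carries 1 probe set assigned to MMP9 alone, so no second probe set of the gene could be compared. Its difference is larger than 0.23, the SD given above for the middle range of signal. As MMP9 was singled out as the most extreme of 145 probe sets, this lends its value no support. Among the 567 probe sets past 1.5-fold on the lower side it stood at rank 491 from the most lowered. With an offset of 32 added to each intensity, which damps differences at low signal, MMP9 came to -0.51, within 1.5-fold. MMP2, the other gelatinase, was close to the median signal and read 49.7 in GLUT4 cells against 46.2 in vector cells on its brightest probe set, a difference of 0.11. The further MMP2 probe sets lay at 0.12 and -0.11.

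The classical secreted MMPs gave little signal on either array. The collagenases MMP1, MMP8 and MMP13, the stromelysins MMP3 and MMP10, and the elastase MMP12 were all below the median signal on both arrays. MMP1, the interstitial collagenase, read 9.36 in the GLUT4 cells and 9.66 in the vector cells. MMP13 read 13.1 in GLUT4 cells and 11.8 in vector cells, MMP3 8.44 in GLUT4 cells against 8.95 in vector cells, and MMP10 11.7 in GLUT4 cells and 10.1 in vector cells. These probe sets give no sign of a difference between the cell populations, the widest of the 6 genes being MMP8 at -0.24 and MMP10 at 0.22. The stromelysin MMP11 was brighter, with 62.4 in GLUT4 cells against 69.2 in vector cells on its brightest probe set (-0.15) and 59.5 in GLUT4 cells and 68.5 in vector cells on the next (-0.20), while its dim ones lay at 0.12 and -0.14.

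MMP1, MMP3, MMP7, MMP8, MMP10, MMP12, MMP13, MMP20 and MMP27 stand next to each other on chromosome 11 with no other protein-coding gene of the RefSeq table between them. All 9 were below the median signal by their brightest probe set. Their differences ran from -0.39 (MMP27, 10.9 in GLUT4 cells and 14.2 in vector cells) to 0.22 (MMP10), with 4 above and 5 below 0 and a median of -0.04. MMP7, the matrilysin of epithelia, was the brightest of the 9, with 37.6 on the GLUT4 array and 34.7 on the vector array (0.11).

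Of the membrane-type MMPs, MMP14 (MT1-MMP), which activates the precursor of MMP2 and cuts collagen at the cell surface, read lower in GLUT4 cells on every one of its 4 probe sets. They gave 402, 195, 157 and 137 on the GLUT4 array, against 477, 240, 196 and 155 on the vector array, differences of -0.25, -0.30, -0.32 and -0.18. The 4 probe sets lie on the same side and close together, and each difference stays within 1.5-fold. MMP15 read 94.4 in GLUT4 cells against 120 in vector cells on its brighter probe set (-0.34) and 73.3 in GLUT4 cells and 79.6 in vector cells on the other (-0.12). MMP25 was at -0.18 and -0.04. MMP17 (72.1 in GLUT4 cells against 69.5 in vector cells), MMP24 (76.5 in GLUT4 cells and 73.1 in vector cells) and MMP16, which was below the median signal (29.1 in GLUT4 cells against 29.0 in vector cells), differed by 0.07 or less on their brightest probe sets. MMP28, an MMP of keratinocytes, read 275 in GLUT4 cells and 299 in vector cells on its brightest probe set, and its 5 probe sets ran from -0.22 to -0.04. MMP19 was at 87.2 in GLUT4 cells against 87.9 in vector cells (-0.01), and the remaining MMP20, MMP21 and MMP26 were dim, with 17.9 in GLUT4 cells and 19.3 in vector cells as their highest readings (MMP26).

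AP-1, the dimer of FOS and JUN proteins, is known to drive several secreted MMP genes, and SP1 binds GC boxes. The promoters of MMP14, the membrane-type MMP whose probe sets lay together, and of MMP7, the 1 gene with an AP-1 match, are printed to show a window with each motif. The RefSeq promoter table (GRCh38.p14, 250 bases before to 50 after the start) held a window for 36 of the 64 genes. The secreted MMP1, MMP3, MMP9, MMP12 and MMP13 were not among them. Below are the 250 bases before the start, 5′ to 3′, from chr14:22836335-22836584 (plus strand) for MMP14, with the GC box GGGCGG in capitals, and from chr11:102530748-102530997 (minus strand) for MMP7, with the AP-1 motif TGAGTCA in capitals.
MMP14: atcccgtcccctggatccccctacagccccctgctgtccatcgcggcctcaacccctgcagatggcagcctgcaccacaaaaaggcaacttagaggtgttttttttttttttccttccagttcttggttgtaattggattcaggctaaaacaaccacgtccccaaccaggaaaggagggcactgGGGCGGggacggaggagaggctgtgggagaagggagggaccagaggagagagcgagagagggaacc
MMP7: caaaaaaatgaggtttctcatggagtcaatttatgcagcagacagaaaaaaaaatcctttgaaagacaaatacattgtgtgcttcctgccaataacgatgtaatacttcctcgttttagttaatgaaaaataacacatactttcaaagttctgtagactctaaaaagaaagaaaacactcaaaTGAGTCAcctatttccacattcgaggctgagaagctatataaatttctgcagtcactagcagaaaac

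The AP-1 motif was searched as TGAGTCA and TGACTCA, which covers both strands, and the GC box as GGGCGG and CCGCCC. MMP7 was the 1 of 36 genes with an AP-1 match (2.8%), 67 bases before its start, where 4.9% of 27305 promoters, and 3.7% of those of the 15384 genes measured here, held one. A GC box was found in 24 of 36 (66.7%), against 44.6% of all promoters and 58.9% of those of the measured genes, among them MMP14, with its box 66 bases before the start, ADAM10, ADAM17, TIMP1, TIMP3 and TIMP4. Of the 24 genes with a GC box, 18 (75.0%) were above the median signal, and of the 12 without, 2 (16.7%), ADAM20 and ADAMTS6. Over all genes with a promoter window these shares were 79.2% and 51.7%. The difference between the arrays had a median of -0.05 in the 24 and 0.01 in the 12 genes. The AP-1 share holds only for genes with a window. It gives no share for the secreted MMPs, several of which had none. A match in these windows describes letters and is no evidence of binding.

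**Figure D2:**
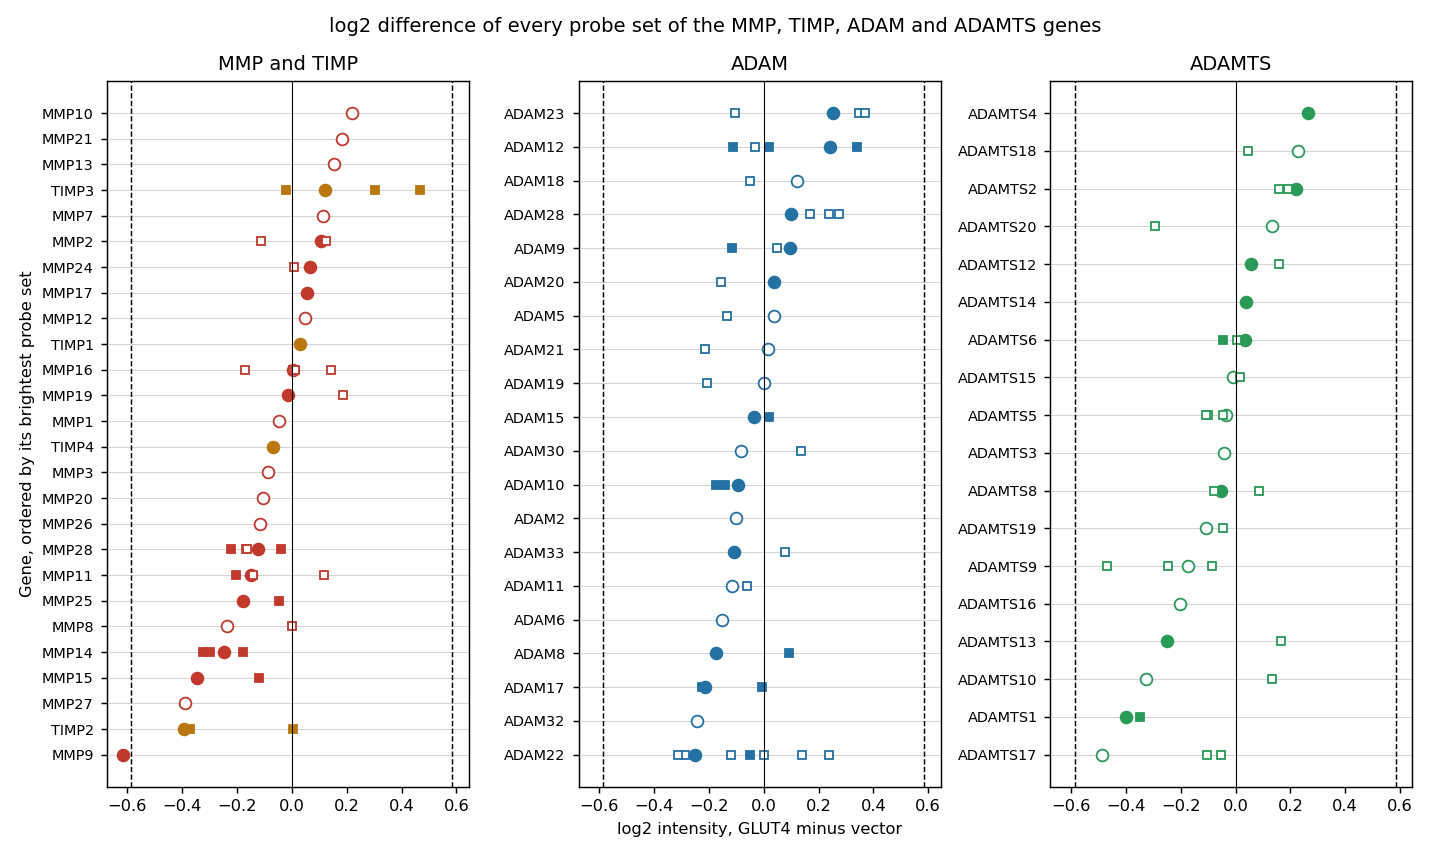
Each row is 1 gene and each symbol 1 probe set, placed by its log2 intensity on the GLUT4 array minus that on the vector array. Circles are the brightest probe set of a gene and squares the others, filled symbols have a mean above the median signal and open ones do not, and dashed lines mark 1.5-fold. MMP9 alone crosses a dashed line, and the 4 filled symbols of MMP14 lie together between -0.32 and -0.18.

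Of the ADAM genes, none passed 1.5-fold on any of the 53 probe sets. ADAM10 and ADAM17, the main sheddases of Notch, cadherins, TNF and EGFR ligands, gave bright signals. These were a little lower in GLUT4 cells except on the ADAM17 probe set at -0.01, which was nearly level. ADAM10 read 3025, 298 and 249 on the GLUT4 array, against 3225, 329 and 281 on the vector array (-0.09, -0.14 and -0.17). ADAM17 read 1257, 500 and 250 on the GLUT4 array, against 1458, 503 and 292 on the vector array (-0.21, -0.01 and -0.23). These differences are close to the spread of single probe sets. ADAM9, which sheds HB-EGF, read 4408 in GLUT4 cells against 4122 in vector cells (0.10) on its brightest probe set and 359 in GLUT4 cells and 388 in vector cells on the next (-0.11), so its probe sets lay on both sides of 0. ADAM15, an ADAM with an integrin-binding motif, was at 341 in GLUT4 cells against 350 in vector cells (-0.04) and at 113 in GLUT4 cells and 111 in vector cells (0.02). ADAM33 read 178 in GLUT4 cells against 192 in vector cells (-0.11) and, on its dim probe set, 23.8 in GLUT4 cells and 22.5 in vector cells (0.08).

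Among the less bright ADAMs, ADAM12, ADAM22 and ADAM23 had probe sets with differences of 0.3 or more in size, that of ADAM22 on the lower side. They are described because of these values. ADAM12, an ADAM of mesenchymal cells and tumours, read 128, 112, 108 and 65.1 on the GLUT4 array, against 109, 110, 85.5 and 70.2 on the vector array, differences of 0.24, 0.02, 0.34 and -0.11. Its probe sets thus lay on both sides of 0. ADAM23, which lacks the catalytic residues and binds integrins, read 92.3, 36.6 and 24.6 on the GLUT4 array, against 77.4, 28.8 and 19.0 on the vector array (0.25, 0.35 and 0.37), with its dimmest probe set at -0.11. Of these only the first was above the median signal. ADAM22, a neuronal ADAM without protease activity, spread from -0.31 to 0.24 over 8 probe sets. The 12 ADAMs with the zinc-binding motif had 6 genes above and 6 below 0 with a median of -0.02, and the 6 measured ADAMs without it had 2 above and 4 below with a median of -0.11. ADAM28, an ADAM of lymphocytes and carcinomas, lay above 0 on all 4 probe sets (0.10 to 0.28), with 54.3 on the GLUT4 array and 50.7 on the vector array on the brightest. The remaining ADAM2, ADAM8, ADAM11, ADAM18, ADAM19, ADAM20, ADAM21, ADAM30 and ADAM32 were between -0.24 and 0.12 on their brightest probe sets. The pseudogenes ADAM5 and ADAM6 were dim, ADAM5 at 12.3 in GLUT4 cells against 12.0 in vector cells and ADAM6 at 18.0 in GLUT4 cells and 20.0 in vector cells.

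Of the ADAMTS genes, ADAMTS1, which cuts the proteoglycans aggrecan and versican, had both of its probe sets lower in GLUT4 cells. They read 2493 and 419 on the GLUT4 array, against 3292 and 534 on the vector array, differences of -0.40 and -0.35, 1.32-fold and 1.27-fold lower. Both differences stay within 1.5-fold. They are larger than 0.16, the SD given above for the highest range of signal, but 17.7% of all probe sets that name 1 gene differed by 0.3 or more. ADAMTS6 differed little on its brightest probe set, at 777 in GLUT4 cells against 758 in vector cells (0.04). ADAMTS4, another aggrecanase, read 67.4 in GLUT4 cells and 56.2 in vector cells (0.26) on its 1 probe set. ADAMTS17 had the lowest value of the ADAMTS genes, 28.5 in GLUT4 cells against 40.0 in vector cells (-0.49), but its 2 other probe sets were at -0.10 and -0.05, so that the value rests on 1 dim probe set. ADAMTS9 lay between -0.47 and -0.09 on 4 dim probe sets, and ADAMTS10 at -0.33 and 0.13. The procollagen-processing ADAMTS2 was at 0.22, 0.16 and 0.19, with 74.1 in GLUT4 cells and 63.7 in vector cells on its brightest probe set, while ADAMTS14 and ADAMTS3 were at 0.04 and -0.04. ADAMTS13, which cuts von Willebrand factor, read 86.1 in GLUT4 cells against 102 in vector cells (-0.25) on one probe set and 36.8 in GLUT4 cells and 32.8 in vector cells (0.16) on the other. The other ADAMTS genes, ADAMTS5, ADAMTS8, ADAMTS12, ADAMTS15, ADAMTS16, ADAMTS18, ADAMTS19 and ADAMTS20, stayed between -0.20 and 0.23 on their brightest probe sets.

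The TIMP genes had all 9 probe sets above the median signal, and their differences did not run one way. TIMP1, which inhibits most soluble MMPs, read 2530 on the GLUT4 array and 2476 on the vector array (0.03). TIMP2, which inhibits MMP14 and also serves as the bridge by which MMP14 activates the MMP2 precursor, read 1098, 497 and 94.9 on the GLUT4 array, against 1442, 642 and 94.7 on the vector array, differences of -0.39, -0.37 and 0.00. TIMP3, the matrix-bound inhibitor that also blocks ADAM17 and aggrecanases, read 239, 136, 141 and 136 on the GLUT4 array, against 220, 137, 114 and 98.3 on the vector array, differences of 0.12, -0.02, 0.31 and 0.47. TIMP4 read 231 in GLUT4 cells against 242 in vector cells (-0.07). The differences thus varied among the probe sets of TIMP2 and among those of TIMP3, and none of the 9 passed 1.5-fold.

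**Figure D3:**
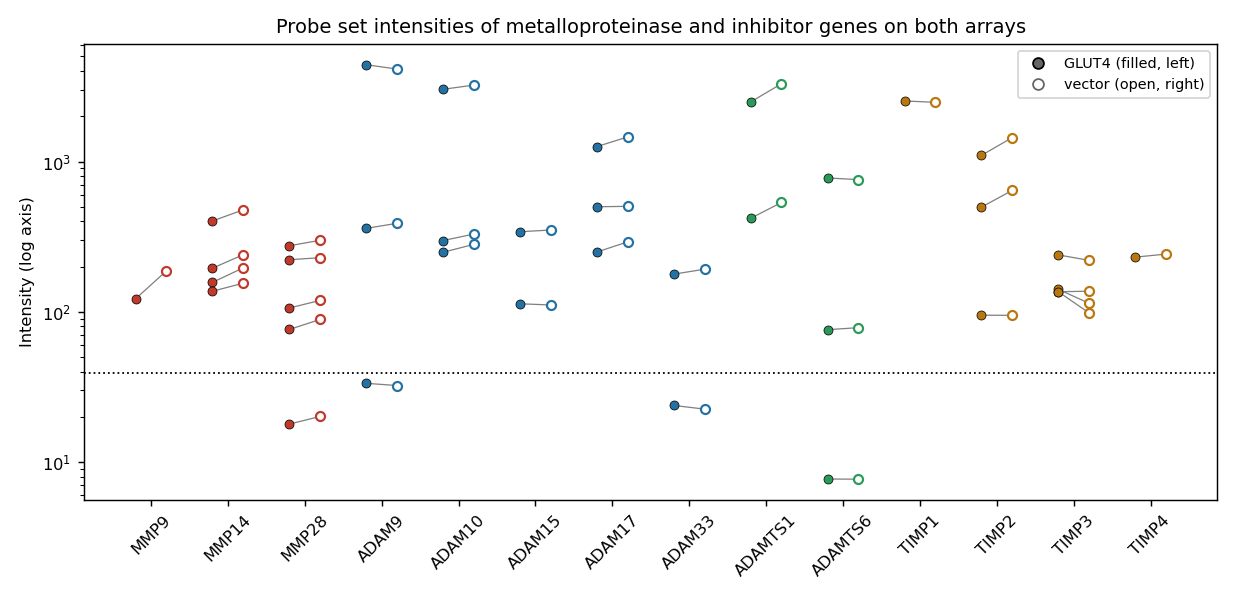
Intensities on a log axis of each probe set of MMP9 and of 13 further genes, with the GLUT4 array as the filled left point and the vector array as the open right point of each pair. The dotted line is the median of all probe sets, 39.4. Among genes with several pairs, all pairs of MMP14, MMP28, ADAM10, ADAM17 and ADAMTS1 have the GLUT4 point lower. The ADAM17 pair of 500 and 503 is nearly level. The pairs of TIMP2 and those of TIMP3 do not move alike.

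Where a gene had several probe sets above the median signal, the direction could be set against itself. Of 16 such genes, 9 lay below 0 on all of these probe sets (ADAM10, ADAM17, ADAM22, ADAMTS1, MMP11, MMP14, MMP15, MMP25 and MMP28), none lay above 0 on all, and 7 were mixed (ADAM8, ADAM9, ADAM12, ADAM15, ADAMTS6, TIMP2 and TIMP3). Of all 6100 genes of this kind, 1660 (27.2%) lay below 0 throughout and 1722 above. With dim probe sets included, 12 of 43 genes were below 0 throughout (27.9%, against 22.2% of all genes) and 5 above. The differences of the 9 genes ran from -0.40 to -0.01, none past 1.5-fold, and probe sets of a gene on the same pair of arrays are not independent samples. The direction counts were not recomputed under other scalings, which move the position of 0. An ADAM17 probe set was nearly level, at 500 in GLUT4 cells and 503 in vector cells. With their dim probe sets, ADAM22 reached 0.24 and MMP11 0.12, so both were mixed.

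Genes of the same system with other names were compared in the same way. Of 16 activators and partners of MMPs, 4 were past 1.5-fold on the lower side, none on the higher, where 1.54% and 1.84% of all genes did, and the median was -0.15. With so few genes a list, these counts are given as a description. This and the other related lists were also chosen with earlier results of these data known. The shares of all genes beside such counts are therefore no test of a list. PLAU, the urokinase that generates plasmin, a protease that activates MMP precursors, read 663 and 241 on the GLUT4 array, against 1327 and 508 on the vector array (-1.00 and -1.07). Its receptor PLAUR read 376, 223 and 154 on the GLUT4 array, against 688, 393 and 241 on the vector array (-0.87, -0.82 and -0.64). PLAT, the tissue plasminogen activator, read 114 in GLUT4 cells and 240 in vector cells (-1.08). ST14, the membrane protease matriptase, read 89.1, 27.7 and 20.3 on the GLUT4 array, against 143, 50.5 and 22.0 on the vector array (-0.68, -0.87 and -0.11). PLG, the plasmin precursor, lay between 0.18 and 0.28 on 3 dim probe sets, HPN, the protease hepsin, at -0.06 and TMPRSS4 at -0.31, all within 1.5-fold. Over all 42 probe sets of the list, 8 passed on the lower side and 1, the dimmer of the PCSK7 probe sets, on the higher side (0.60). FURIN, which cuts the precursors of MMP14 and ADAMs, read 101 in GLUT4 cells against 109 in vector cells (-0.11), and BSG, the inducer of MMPs known as EMMPRIN, 1733 in GLUT4 cells and 1382 in vector cells (0.33).

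Of 10 other inhibitors, none passed 1.5-fold on the brightest probe set and the median was 0.12. RECK, the membrane-anchored inhibitor, read 203, 197 and 167 on the GLUT4 array, against 228, 166 and 147 on the vector array (-0.17, 0.25 and 0.19), so that its bright probe sets lay on both sides of 0. PAPLN, papilin, a protein related to the ADAMTS family, had probe sets that differed in direction, with 70.1 in GLUT4 cells and 58.7 in vector cells on the brightest (0.26), and 37.1 in GLUT4 cells and 59.4 in vector cells on the other (-0.68, past 1.5-fold). Of 10 cofactors of ADAM10 and ADAM17, none passed, 8 lay below 0, as did 52.2% of all genes, and the median was -0.15. RHBDF2 (iRhom2), which carries ADAM17 to the surface, read 106 in GLUT4 cells against 131 in vector cells (-0.31). The cofactor TSPAN14 lay at -0.38 on its brightest probe set, while TSPAN33 and TSPAN17 lay at 0.25 and 0.17. Of 28 measured substrates of ADAM10 or ADAM17, 2 were past 1.5-fold higher and 1 lower (1.84% and 1.54% over all genes), with a median of -0.02. TNF, a cytokine that ADAM17 releases, read 72.7 in GLUT4 cells and 27.5 in vector cells (1.40) on its 1 probe set. The receptor ERBB4 read 54.7 in GLUT4 cells against 35.1 in vector cells (0.64, with its dimmer probe sets between -0.11 and 0.22). The vector readings of TNF and ERBB4 were below the median signal. MICB, a ligand of natural killer cell receptors, read 1105 in GLUT4 cells and 1708 in vector cells (-0.63). Of 17 transcription factors that act on MMP promoters, 2 were past 1.5-fold, both lower (1.54% over all genes), and the median was -0.02. JUN, a subunit of AP-1, read 3163, 823, 391 and 159 on the GLUT4 array, against 5899, 2351, 777 and 334 on the vector array, between -0.90 and -1.51. FOSB, a partner of JUN in AP-1, read 1124 in GLUT4 cells against 1994 in vector cells (-0.83). The other AP-1 subunits of the list lay on both sides of 0, FOS at 3274 in GLUT4 cells and 3226 in vector cells (0.02) and FOSL1 at 634 in GLUT4 cells against 440 in vector cells (0.53). On their brightest probe sets JUNB was at 0.07, JUND at -0.40 and FOSL2 at -0.19. The further FOSL2 probe sets ran from -0.13 to 1.09, with the highest at 138 in GLUT4 cells and 65.0 in vector cells. MMP7, whose window holds the AP-1 motif, lay at 0.11 on its 1 probe set, which was below the median signal. A link between MMP7 and the AP-1 subunits was not tested.

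**Figure D4:**
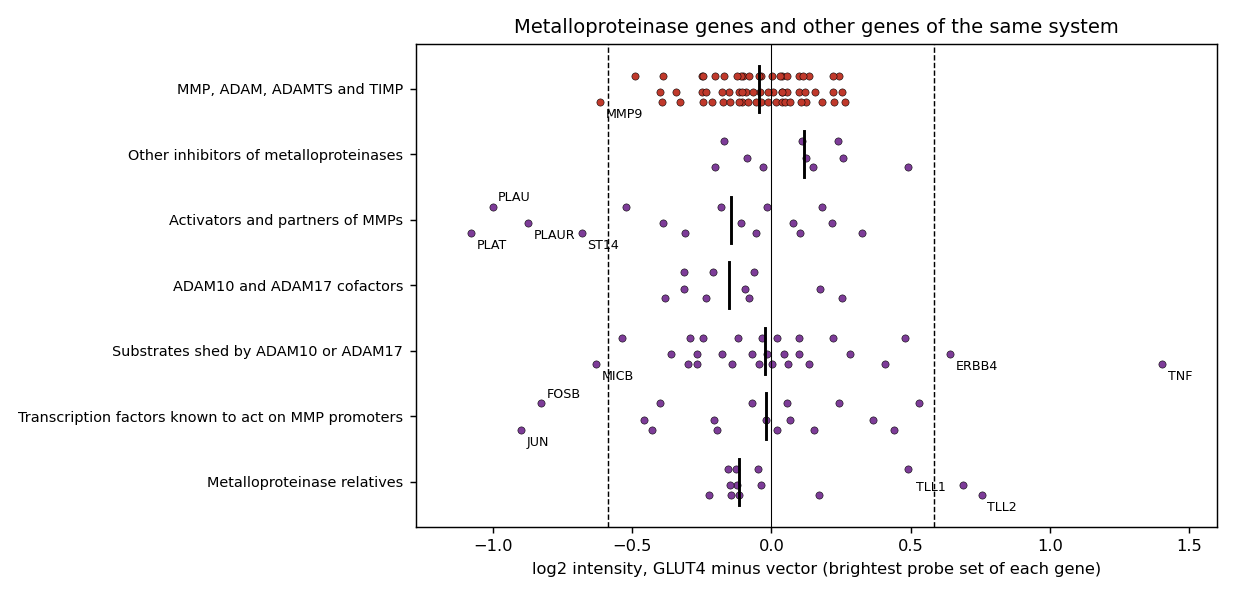
Each point is 1 gene at its brightest probe set, by list, with its log2 difference in intensity, GLUT4 minus vector, on the horizontal axis. Vertical bars are list medians and dashed lines mark 1.5-fold. The 64 MMP, ADAM, ADAMTS and TIMP genes lie between -0.62 and 0.26, while PLAT, PLAU and PLAUR lie at -0.87 or lower and TNF at 1.40.

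Of 13 metalloproteinase relatives with other names, TLL1 and TLL2, tolloid-like enzymes, were the 2 that passed 1.5-fold on the higher side (1.84% over all genes), and none passed on the lower side. Both were dim, TLL1 with 11.4 in GLUT4 cells and 7.08 in vector cells (0.69) and TLL2 with 18.0 in GLUT4 cells against 10.7 in vector cells (0.75), and the 2 further TLL2 probe sets were at -0.05 and 0.05. BMP1, the founding member of that group, read 105 in GLUT4 cells and 114 in vector cells (-0.12).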

How the data were processed

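The authors extracted total RNA, labelled it as biotinylated cRNA, hybridized 1 Affymetrix array per cell population and, per the methods, normalized log2 values in GeneSpring. The submitters' processing notes name MAS5. The sources used here do not say in which order. The deposited values are linear intensities of 54675 probe sets, and the sorted log2 values of the arrays lie at most 0.15 apart. Probe sets were named through the platform annotation: 41097 name 1 gene, 1801 several and 11777 are unnamed here. Values under 1 would have been raised to 1 before taking log2. Genes, lists and the naming rule were chosen with earlier results of these data known.

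Named with values were members past 1.5-fold, those with a mean of at least 4 times the median of 39.4, MMP14, ADAM10, ADAM17, the TIMPs and up to 4 genes past 1.5-fold of each related list. Other genes given with values were chosen after these had been seen. RefSeq has 3 further genes that match the name rule, ADAM7, ADAM29 and ADAMTS7, which were not analysed here, and protein sequences were not used here. The number of arrays limits the precision, and depth does not apply. The procedure was tested on simulated data. Alternatives were equal medians, quantile normalization, loess (fraction 0.3), 32 added to each intensity, probe sets above the median signal only, no x_at or s_at probe sets, gene means over probe sets, and 2-fold as the threshold. Scripts ran in Python 3.11.15 with pandas 2.3.3, numpy 2.4.6, statsmodels 0.14.6 and matplotlib 3.10.9.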

Additional observations from a re-analysis of the deposited data

How the results depend on the processing

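MMP9 alone decided the count on the lower side. The number of probe sets and of genes past 1.5-fold on that side was 1 under equal medians, quantile normalization, loess and the filter at the median signal, as was the number of genes with means over all probe sets of a gene. It was 0 with an offset of 32, where MMP9 came to -0.51, 0 without x_at and s_at probe sets, which removes the MMP9 probe set and leaves 93 probe sets of 55 genes, and 0 at 2-fold. The count on the higher side was 0 under each of these alternatives. The median over the genes ran between -0.05 and -0.02, and that over all genes between -0.02 and 0.01. All 94 recomputed values of the 14 genes in the plot of intensities stayed within 0.20, the SD of a single probe set, of the reported ones. Some of them could not change. The filter at the median signal keeps the brightest probe set of each of these genes, and MMP9 has 1 probe set to average. The limit of 0.20 is also wider than many of the reported differences. MMP14 ranged from -0.26 to -0.22 and ADAMTS1 from -0.44 to -0.38. The smallest differences changed sign, ADAMTS6 to -0.00 with means over probe sets and TIMP1 to -0.01 with quantile normalization. No paired analysis was possible because each group had 1 array. Detection calls were not used here, so dim probe sets may hold little signal of their gene.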

Other observations

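RNAs that overlap these genes on the other strand were measured by probe sets of their own. MMP24OS, transcribed opposite MMP24, read 195, 169, 131 and 121 on the GLUT4 array, against 209, 150, 100 and 99.8 on the vector array, differences of -0.10, 0.16, 0.38 and 0.28, while MMP24 was at 0.07. MMP25-AS1 read 35.7 and 43.3 (-0.28) and 13.5 and 14.4 (-0.09), beside MMP25 at -0.18. ADAMTS9-AS2 was dim, between -0.29 and 0.28 over 5 probe sets, beside ADAMTS9 at -0.17. The probe set that the annotation assigns to MMP23A and MMP23B together, and which therefore names neither, read 25.7 and 32.3 (-0.33). None of these passed 1.5-fold.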
